A study of Mus musculus with 4 samples.

Results

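Cell cycle genes encode the proteins with which a dividing cell copies and shares out its chromosomes, and in the newborn brain their mRNA comes mainly from the progenitors that still divide. A set of 37 such genes, fixed by name and covering the cycle from entry in G1 to cytokinesis, was followed in newborn mouse brain after prenatal exposure to titanium dioxide nanoparticles (TiO2-NP). The 37 genes stood among 25389 genes with a RefSeq or GenBank accession on the array, and all of them had at least 1 probe. No member passed limma's test with Benjamini-Hochberg adjustment. On levels scaled between arrays, the members' median signed difference between exposed and control brains was 0.038, from means of 2 arrays. That between the 2 control pools, from 1 array each, was larger in size, at -0.073. A mean of 2 arrays varies less than 1 array, so these 2 measures are unlike. The 4 single pairs of an exposed with a control array gave medians from -0.028 to 0.096. Without scaling the median between exposures was the larger in size (0.15 against -0.0998), but the median of all genes was then itself 0.12 for exposure. Relative to all genes the unscaled medians were 0.032 between exposures and -0.066 between the control pools. Member by member, the difference between exposures exceeded both gaps between pools of the same exposure for 19 of 34 (55.9%, against 43.5% of genes). The members furthest apart between exposures were Kif11, Cdc6 and Mki67, with TiO2-H levels between 1.29 and 1.38 times those of Sham, while Cdc20 was at 0.873 times the Sham level.

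Progenitors of the ventricular zones and of the cerebellar external granule layer, and oligodendrocyte precursors, are still cycling at birth, whereas neurons have left the cycle. In G1, D-type cyclins with CDK4 and then E-type cyclins with CDK2 inactivate the retinoblastoma protein and free the E2F factors that switch on the genes of S phase. Origins of replication are licensed by CDC6 and CDT1, which load the MCM helicase, and cyclin A, cyclin B and CDK1 then carry the cell into mitosis, where kinases, motors and the spindle checkpoint separate the chromosomes.

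Pregnant C57BL/6J mice received 25 μL of vehicle (Sham, 5 dams) or of TiO2-NP suspension at 100 μg per mouse (TiO2-H, 6 dams) into the trachea, on gestational day 10.5 by the protocol and on day 14 by the sample labels. Whole brains were taken at postnatal day 1, and RNA of 2 offspring of each dam was pooled by exposure and sex into 4 pools, each hybridized to 1 one-color array. The 2 pools of an exposure were therefore the only samples that could stand as its replicates, the male and female pools of an exposure drew on the same dams, and p-values measure the spread between pools, not between animals or litters. In whole brain, fewer dividing cells and less mRNA per cell cannot be told apart.

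Each array had 62976 spots, of which 56.2% to 61.2% of those that are not controls were well above background by the scanner software, and none was saturated. The 4 arrays lay on 1 slide with the Sham arrays in one row and the TiO2-H arrays in the other, so that row and exposure cannot be told apart. The sex labels of the TiO2-H pools were contradicted by sex-linked mRNAs. Xist, transcribed from the inactive X chromosome, gave 17.9 and 276 units of processed signal for Sham (male, then female) but 347 and 5.36 for TiO2-H labelled male and female. The Y-linked Eif2s3y gave 3519, 419, 6.40 and 4345 in the same order. The Sham female array thus carried Xist together with Eif2s3y, with another Y-linked mRNA, Ddx3y, at 142 against 1418 on the Sham male array. The TiO2-H pools are called by their labels, and main values within a sex label are also given with the arrays paired across the labels.

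Promoter letters are shown for Mki67, Kif11 and Cdc6, the members with the highest differences, and for Cdc20, the member with the lowest. They are the 250 bases before the RefSeq start on GRCm38.p6, 5′ to 3′ along the gene, in the order printed at chr7:135716380-135716629 (minus strand), chr19:37376132-37376381 (plus), chr4:118437344-118437593 (minus) and chr11:98907901-98908150 (plus). Capitals mark CCAAT or its reverse ATTGG, the cell cycle genes homology region (CHR) TTTGAA or its reverse TTCAAA, and the E2F motif in Cdc6, and none of these overlapped another.

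Mki67: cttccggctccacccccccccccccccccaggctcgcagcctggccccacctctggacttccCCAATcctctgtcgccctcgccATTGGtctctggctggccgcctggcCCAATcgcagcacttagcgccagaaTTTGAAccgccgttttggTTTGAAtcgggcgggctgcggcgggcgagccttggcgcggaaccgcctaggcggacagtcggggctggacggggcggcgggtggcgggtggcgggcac
Kif11: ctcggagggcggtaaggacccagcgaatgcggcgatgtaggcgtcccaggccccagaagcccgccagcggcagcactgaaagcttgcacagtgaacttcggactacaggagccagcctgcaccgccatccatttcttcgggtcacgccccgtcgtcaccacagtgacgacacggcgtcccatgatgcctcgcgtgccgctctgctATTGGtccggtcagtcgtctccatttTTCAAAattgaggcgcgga
Cdc20: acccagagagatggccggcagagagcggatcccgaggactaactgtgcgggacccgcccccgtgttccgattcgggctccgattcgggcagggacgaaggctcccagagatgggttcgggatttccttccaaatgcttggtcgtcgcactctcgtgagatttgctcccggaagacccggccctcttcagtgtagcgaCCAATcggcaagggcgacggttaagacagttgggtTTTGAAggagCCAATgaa
Cdc6: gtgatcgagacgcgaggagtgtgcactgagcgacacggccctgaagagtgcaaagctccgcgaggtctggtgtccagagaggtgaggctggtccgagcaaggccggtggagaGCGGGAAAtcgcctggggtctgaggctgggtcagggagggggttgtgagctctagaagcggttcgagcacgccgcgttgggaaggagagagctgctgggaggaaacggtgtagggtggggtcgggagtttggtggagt

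In textbooks, CCAAT boxes followed by a CHR mark genes of G2 and mitosis, and E2F sites mark genes of G1 and S phase. The Cdc20 stretch held 2 CCAAT boxes and a CHR starting at base -18, and that of Kif11 held 1 of each with the CHR at base -19, counted back from the start. The Mki67 stretch held 3 CCAAT boxes and 2 copies of the CHR. That of Cdc6 held an E2F motif and neither of the others.

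Of the 37 genes, 30 had a RefSeq window of 300 bases (250 before the start and 50 after it), and some had more than 1, giving 32 windows. Ccnd1, Ccnd2, Ccne2, Ccna2, Mcm4, Tpx2 and Aurkb had none. CCAAT on either strand stood in 25 of the 32 member windows (78.1%), against 37.4% of 32851 windows of all genes. TTTGAA stood in 13 (40.6%), against 17.9%. The E2F motif, searched as TTTCCCGC, TTTGGCGC, TTTCGCGC or TTTGCCGC on either strand, stood in 8 (25.0%), against 2.26%, and 4 of its 8 genes were Mcm3, Mcm5, Mcm6 and Mcm7. The others were Cdc6, Cdt1, Cdk1 and Cdk2. These shares describe letters and no binding was measured.

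A gene's level is given below as its processed signal divided by the array's 75th percentile, so that 1 equals that percentile, and differences are log2 TiO2-H minus Sham of these levels with limma's SE. Each gene was read on the probe with the highest mean signal. Of the 37 members, 34 were well above background on all 4 arrays, Cenpf on 1 array, and Ccne2 and Aurkb on none, which left 35 in the test among 18824 genes.

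None of the 35 members and 0.0% of the 18824 genes had an adjusted p under 0.05, and the lowest adjusted p of limma was 0.276 for members and for all genes. At an unadjusted p under 0.05, 8 members were higher in TiO2-H (22.9%, against 10.4% of all genes) and 1 was lower (2.86%, against 6.26%). The 8 were Mki67, Cenpe, Cdc6, Ccnd1, Kif11, Bub1, Rrm2 and Cdk2, and the 1 was Bub1b. Without scaling between arrays these counts were 15 and 0, the median of all genes itself then being 0.12. Both TiO2-H arrays lay above both Sham arrays for 15 members (42.9%, against 28.9% of all genes) and below for 9 (25.7%, against 26.5%), and the other 11 overlapped. The split was 23 above and 1 below without scaling. The shares of all genes were not counted without scaling, for either of these pairs of counts. The shares of all genes on scaled levels, 28.9% above and 26.5% below, also apply to the counts by role and by list given below. With 2 arrays a side, the smallest p that exact permutation allows is 0.33.

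**Figure D1:**
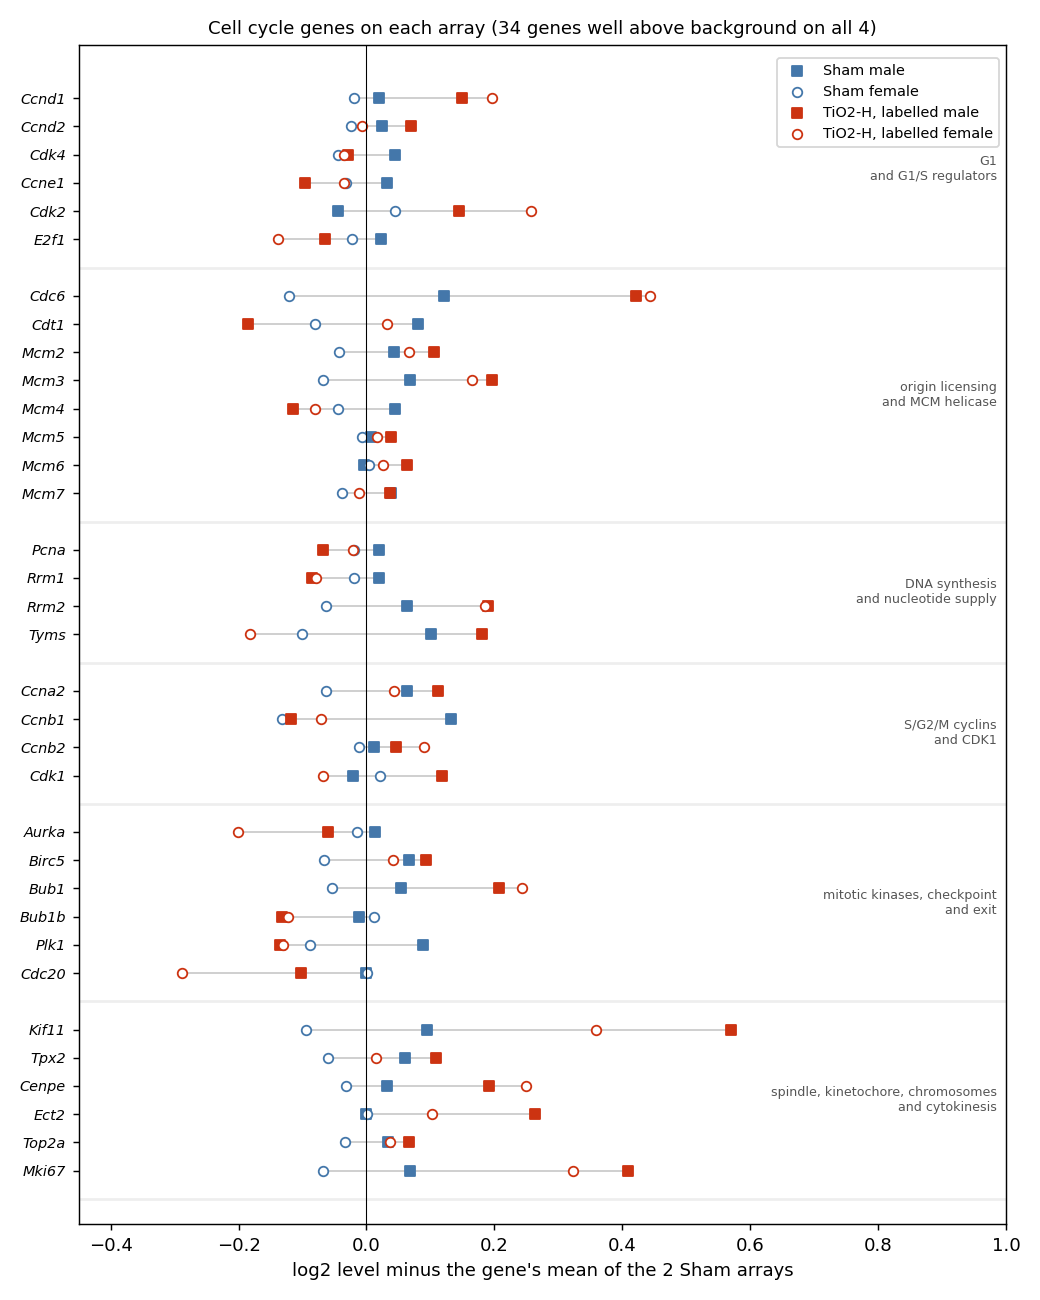
Levels of the 34 members well above background on all 4 arrays, as log2 difference from the gene's own mean over the 2 Sham arrays (x axis), by role (y axis). Squares are arrays labelled male and circles arrays labelled female, blue for Sham and red for TiO2-H, and the grey line spans the 4 arrays. Kif11, Cdc6 and Mki67 have both red points to the right of both blue points, and Cdc20 has both to the left.

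The differences were small on a log2 scale. They ran from -0.20 for Cdc20 to 0.46 for Kif11, and 31 of the 34 members on all 4 arrays lay within 0.25 of 0. The median absolute difference of these 34 was 0.090, against 0.084 for the 16602 genes on all 4 arrays. For 32 of the 34, limma's 95% interval lay within 1.5-fold either way, the exceptions being Kif11 and Cdc6. The share of all genes with such an interval was not counted.

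**Figure D2:**
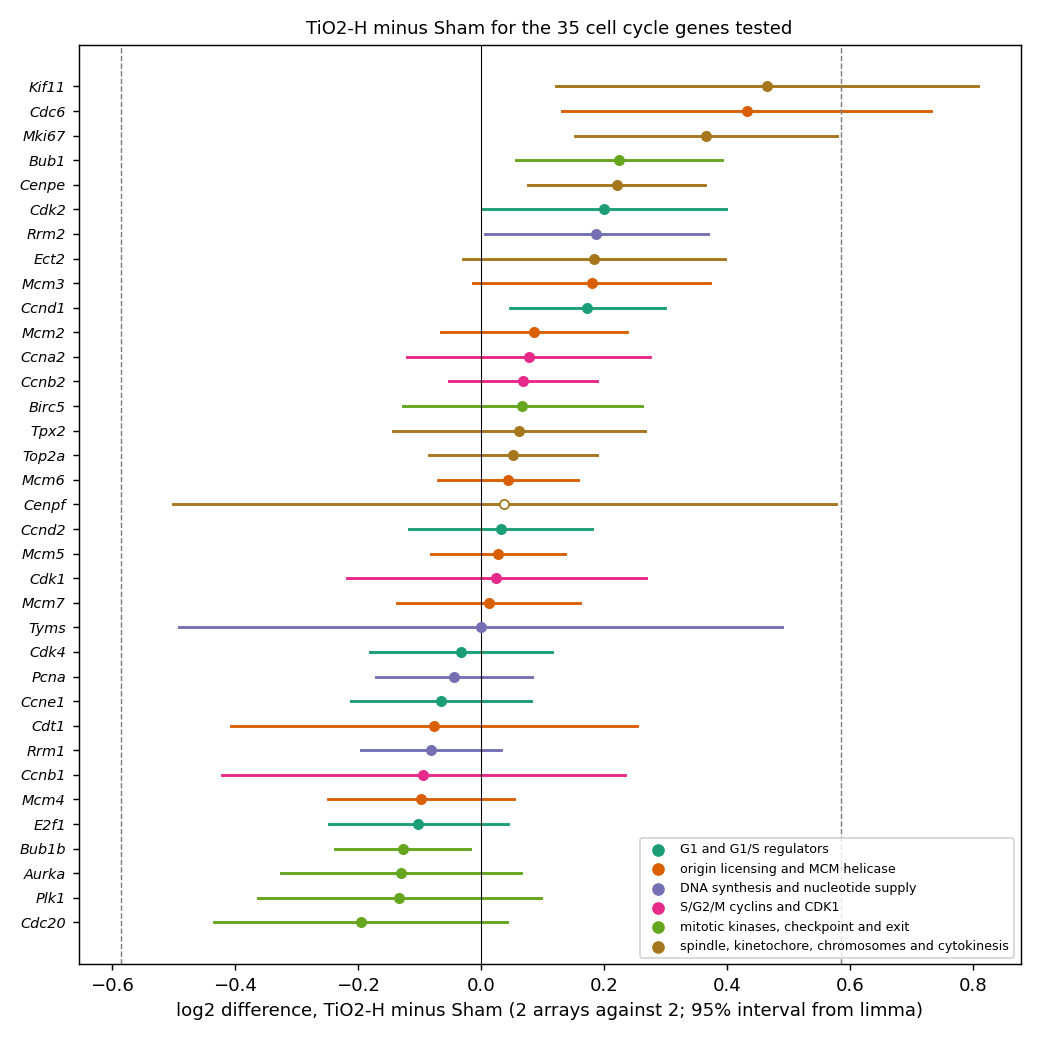
Log2 difference, TiO2-H minus Sham, for the 35 members tested (points, colored by role), with limma's 95% interval (bars) and 1.5-fold either way (dashed lines). Only the bars of Kif11 and Cdc6 cross a dashed line, and the open point is Cenpf, whose 3 dim arrays were set to a floor, so that its bar sets no limit.

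Among the regulators of G1 and of entry into S phase, 6 of 7 genes were measured, with a median difference of -0.00034 (0.11 without scaling and -0.046 with normexp), and TiO2-H was above Sham on both arrays for 2 genes and below for 2. Ccnd1, a D-type cyclin that answers to growth factors, had levels of 2.83 and 2.75 on the Sham male and female arrays and 3.09 and 3.20 on the TiO2-H arrays labelled male and female. Its difference was 0.17 ± 0.042 (SE), with an interval from 0.047 to 0.30. Cdk2, the kinase partner of cyclins E and A, had levels of 0.117 and 0.124 in Sham and 0.133 and 0.144 in TiO2-H. The pairs of both genes did not overlap. The difference of Cdk2, 0.20 ± 0.066, turned to -0.056 when the background was corrected by normexp, so that its direction depended on how a dim signal was treated.

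Cdk4, the partner of the D-type cyclins, had levels of 23.8 and 22.4 in Sham and 22.6 and 22.5 in TiO2-H, and the pairs overlapped, at -0.033 ± 0.049 (0.082 without scaling). Ccnd2, the other D-type cyclin of the set, differed by 0.032 and Ccne1, a cyclin of the G1 to S transition, by -0.066. E2f1, the transcription factor that switches on S phase genes, had levels of 0.997 and 0.966 in Sham and 0.938 and 0.892 in TiO2-H, a difference of -0.10 ± 0.049, and lay on the other side of 0 without scaling, as did Ccne1. Ccne2, a second E-type cyclin, did not stand well above background on any of the arrays.

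Of the 8 genes of origin licensing and the MCM helicase, all were measured on 4 arrays, with a median difference of 0.036. Both TiO2-H arrays were above both Sham arrays for 5 genes and below for 1. Cdc6, which loads the helicase on origins, had levels of 0.0596 and 0.0504 in Sham and 0.0734 and 0.0745 in TiO2-H. The difference was 0.43 ± 0.10, with an interval from 0.13 to 0.73 and an adjusted p of 0.276 by limma. The TiO2-H pools were close to each other, and the Sham pools lay further apart. Its signals, from 40.1 to 64.9, were near the lowest that counted as well above background (23.3 to 31.7), and the difference was 0.29 with normexp. Its second probe differed by 0.35, but was well above background on 3 arrays only and had pairs that overlapped.

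Mcm3, a subunit of the helicase, had levels of 2.26 and 2.06 in Sham and 2.47 and 2.42 in TiO2-H, without overlap, at 0.18 ± 0.064 (0.088 with normexp). Mcm6 was nearly level, with 11.0 and 11.0 in Sham and 11.5 and 11.2 in TiO2-H, a difference of 0.044 ± 0.038. The other subunits differed by 0.086 (Mcm2), -0.097 (Mcm4), 0.027 (Mcm5) and 0.012 (Mcm7). Subunits that work in 1 ring thus lay on both sides of 0, with Mcm4 turning to 0.017 without scaling. Cdt1, the partner of CDC6, had levels of 2.94 and 2.63 in Sham and 2.45 and 2.85 in TiO2-H. Its pairs overlapped, and the difference was -0.27 under the male label and 0.11 under the female label, and -0.10 and -0.048 with the arrays paired across the labels.

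The 4 genes of DNA synthesis and nucleotide supply had a median difference of -0.023, on the other side of 0 without scaling (0.092) and with normexp (0.0015). Rrm2, the small subunit of ribonucleotide reductase that is made in S phase, had levels of 4.07 and 3.73 in Sham and 4.45 and 4.43 in TiO2-H, without overlap, at 0.19 ± 0.061. Rrm1, the large subunit of the same enzyme, had levels of 3.83 and 3.73 in Sham and 3.56 and 3.58 in TiO2-H, at -0.082 ± 0.038 (0.033 without scaling). The pairs of the 2 subunits thus lay in opposite order on these scaled levels. Pcna, the sliding clamp of DNA polymerase, had levels of 15.5 and 15.1 in Sham and 14.6 and 15.1 in TiO2-H, at -0.045 ± 0.042 (0.070 without scaling). Tyms, thymidylate synthase, had 0.200 and 0.174 in Sham and 0.211 and 0.164 in TiO2-H, at -0.00049 ± 0.16, the TiO2-H arrays lying on either side of the Sham arrays.

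The cyclins of S phase and mitosis with CDK1 had a median difference of 0.046 over 4 genes, and only Ccnb2 had pairs without overlap. Cdk1, the kinase that starts mitosis, had levels of 0.526 and 0.541 in Sham and 0.579 and 0.509 in TiO2-H, at 0.025 ± 0.081. Ccnb1, its main cyclin, had 1.41 and 1.17 in Sham and 1.18 and 1.22 in TiO2-H, at -0.094 ± 0.11 (0.021 without scaling). The Sham male array alone stood high for Ccnb1. Ccnb2, another B-type cyclin, had 1.36 and 1.33 in Sham and 1.39 and 1.43 in TiO2-H, at 0.068 ± 0.040 (0.14 with normexp). Ccna2, the A-type cyclin of dividing somatic cells, had 1.30 and 1.19 in Sham and 1.34 and 1.28 in TiO2-H, at 0.077 ± 0.066.

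The mitotic kinases and genes of the checkpoint and of mitotic exit had the lowest median of the 6 roles, -0.13 over the 6 of 7 genes measured (-0.015 without scaling). TiO2-H was below Sham on both arrays for 4 of them, Aurka, Bub1b, Plk1 and Cdc20, and above for Bub1. Cdc20, the activator of the ubiquitin ligase that ends mitosis, had levels of 2.53 and 2.53 in Sham and 2.35 and 2.07 in TiO2-H. The difference was -0.20 ± 0.080, with an interval from -0.43 to 0.043. The Sham pools were level and the TiO2-H pool labelled female was the lowest.

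Bub1b, a kinase-like protein of the spindle checkpoint, had levels of 0.301 and 0.306 in Sham and 0.277 and 0.278 in TiO2-H. It differed by -0.13 ± 0.037 and was the 1 member with an interval below 0. Bub1, the checkpoint kinase at the kinetochore, lay in the opposite order, with 0.133 and 0.124 in Sham and 0.148 and 0.152 in TiO2-H, at 0.22 ± 0.056 (0.077 with normexp). Aurka, the kinase of the spindle poles, and Plk1, a kinase of many mitotic steps, both differed by -0.13, and Birc5, the survivin subunit of the chromosomal passenger complex, by 0.067 ± 0.065. Aurkb, the kinase of that complex, did not stand well above background on any of the arrays. Without scaling the 4 lower genes of this role were still below 0, whereas the 9 other members with a difference below 0 were above it.

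Of the 7 genes of the spindle, kinetochore, chromosomes and cytokinesis, 6 were measured on all 4 arrays. All 6 had a difference above 0, as had 52.9% of all genes on 4 arrays, with a median of 0.20, and 5 had both TiO2-H arrays above both Sham arrays. With Cenpf at its floor the median of the list was 0.18 (0.11 with normexp). Mki67, the Ki-67 protein that coats mitotic chromosomes and is the usual marker of cycling cells, had levels of 1.99 and 1.81 in Sham and 2.52 and 2.37 in TiO2-H. The difference was 0.37 ± 0.071, a fold of 1.29 with an interval from 1.11 to 1.49, and its unadjusted p of 0.0106 was the lowest of the members. A second Mki67 probe differed by 0.29. Kif11, the motor that pushes the spindle poles apart, had levels of 0.123 and 0.108 in Sham and 0.171 and 0.147 in TiO2-H. It differed by 0.46 ± 0.11, a fold of 1.38, and had 1 probe only.

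Cenpe, a kinetochore motor, had levels of 1.07 and 1.02 in Sham and 1.19 and 1.24 in TiO2-H, at 0.22 ± 0.048 (0.11 with normexp). Ect2, the exchange factor that starts cytokinesis, had 0.271 and 0.271 in Sham and 0.325 and 0.291 in TiO2-H, at 0.18 ± 0.071. For both genes each TiO2-H array was above each Sham array. Top2a, the topoisomerase that untangles chromosomes, and Tpx2, which nucleates spindle microtubules, had differences of 0.052 and 0.061 (Tpx2 at 0.11 with normexp). Cenpf, a kinetochore protein, had processed signals of 8.45 and 8.90 in Sham and 18.7 and 40.4 in TiO2-H and was well above background only on the TiO2-H array labelled female, so that the fit set 3 of its arrays to a floor and its fitted difference of 0.038 (-0.089 with quantile normalization) is neither a measured value nor a bound.

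The gap between pools of the same exposure was compared with that between exposures. The members' median difference, TiO2-H minus Sham, was 0.038, against 0.0065 for all genes tested. The Sham female pool was below the Sham male pool for 28 of the 34 members on all 4 arrays (82.4%, against 53.2% of 16602 genes), with a median of -0.073. The TiO2-H pools differed less, with 20 of 34 members lower under the female label (58.8%, against 47.2%) and a median of -0.026. Over these 34 members the 4 pairs of a TiO2-H with a Sham array gave medians of 0.040 (both labelled male), 0.066 (both labelled female), 0.096 (TiO2-H male label minus Sham female) and -0.028 (TiO2-H female label minus Sham male). The sign of the exposure median thus depended on which pools were paired, except that without scaling all 4 medians were above 0. Without scaling the exposure median was 0.15 and that between the Sham pools -0.0998, where the median of all genes was itself 0.12 for exposure. Relative to the median of all genes these unscaled values were 0.032 and -0.066. The summed level of the members was 110 and 105 in Sham and 109 and 108 in TiO2-H, so that the scaled TiO2-H sums lay between those of Sham, whereas the unscaled sums of processed signal were higher in TiO2-H (94313 and 93983) than in Sham (89421 and 83671). The largest parts of the scaled sum were Cdk4 (23.8 and 22.4 in Sham, 22.6 and 22.5 in TiO2-H), Pcna and Mcm6.

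**Figure D3:**
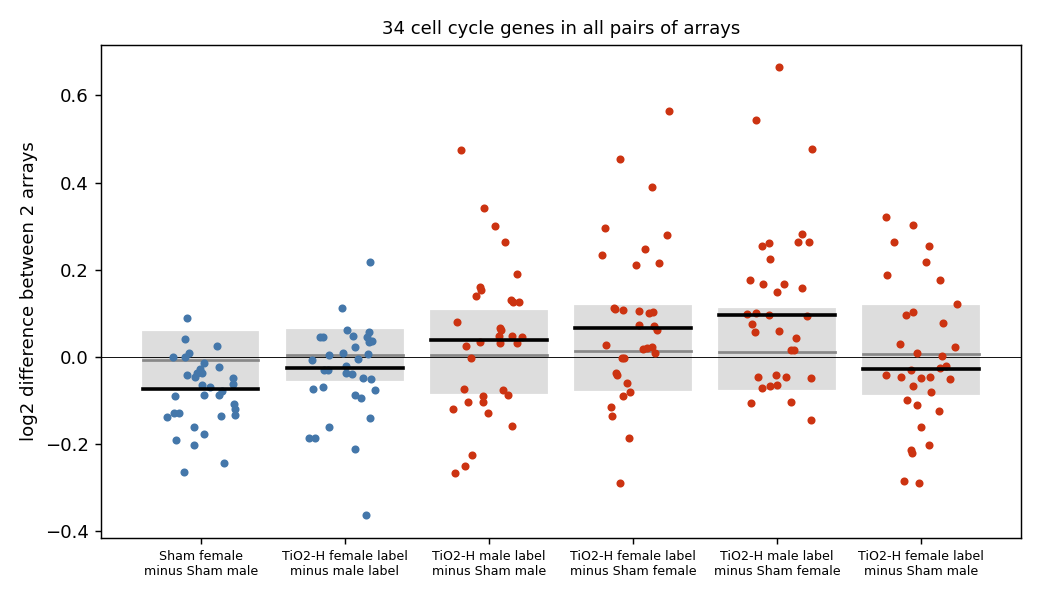
Log2 differences of the 34 members (points) between each pair of the 4 arrays (x axis), blue for pools of the same exposure and red for pools of different exposure. Black lines are the members' medians, and grey boxes with a line are the quartiles and median of 16602 genes. The member median is lowest between the 2 Sham pools (-0.073) and highest between the TiO2-H array labelled male and the Sham female array (0.096).

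With 1 array in each exposure and sex label no test was possible within a label. None of the members reached 1.5-fold or fell to 0.67-fold on the arrays labelled male (2.82% and 2.24% of all genes compared) or female (1.98% and 2.22%). The values nearest to a threshold were those of Cdc6 on the arrays labelled female, 0.56, and of Kif11 on those labelled male, 0.47. Of the 35 members, 19 were above 0 under both labels, 9 were below 0 under both and 7 had opposite signs, among them Cdt1, Ccnb1, Cdk1 and Tyms. The 7 also held Cenpf, at -0.14 and 0.22, whose dim arrays were set to a floor. The shares of all genes with these signs were not counted. Pairing the arrays across the labels took Kif11 past 1.5-fold between the TiO2-H array labelled male and the Sham female array, at 0.66.

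**Figure D4:**
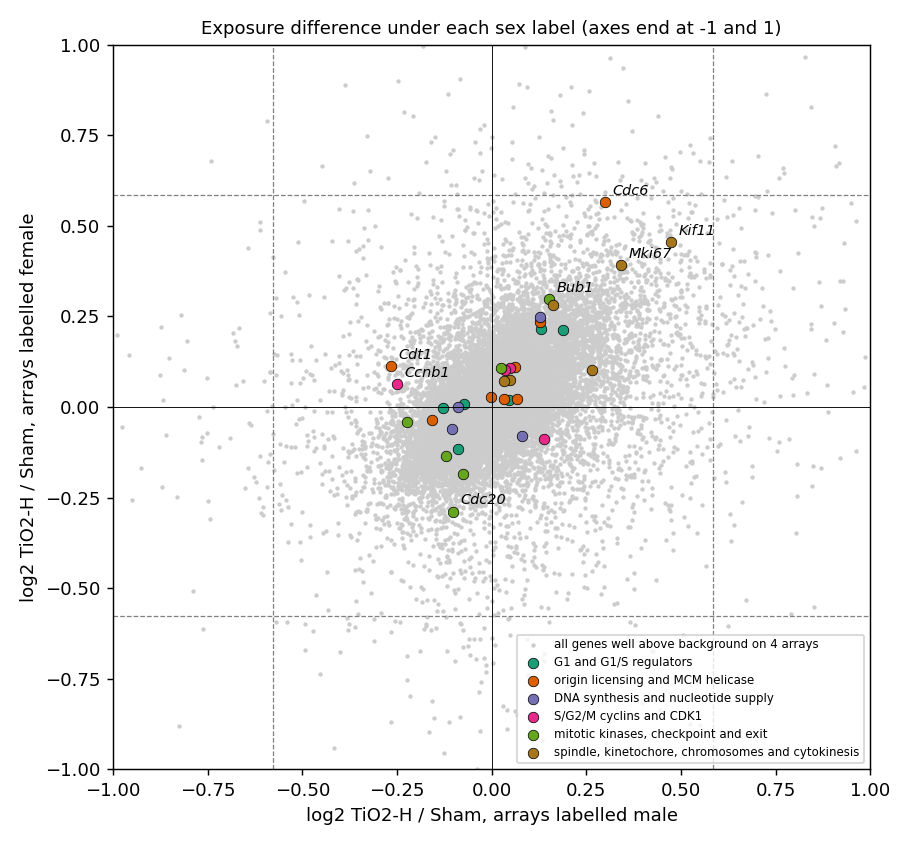
Log2 TiO2-H over Sham on the arrays labelled male (x axis) and female (y axis) for the 34 members (colored by role) and for all genes well above background on 4 arrays (grey, some beyond the axes). Dashed lines are 1.5-fold and 0.67-fold, and no member lies beyond them.

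More than 1 probe stood for 8 members. Their 11 other detected probes had the same sign as the probe used in 8 cases. The other probes of Cdk4, Ccne1 and Birc5 that differed in sign lay between -0.067 and 0.026, and both further Ccnb1 probes were below 0, at -0.20 and -0.16. The second Tpx2 probe, at 0.64, was well above background on 2 arrays only, against 0.061 for the probe used.

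Another 92 cell cycle genes, in 4 lists, were read in the same way, and 90 were tested. None passed the adjusted test. At an unadjusted p under 0.05, 7 were higher (7.78%, against 10.4% of all genes) and 8 lower (8.89%, against 6.26%), both TiO2-H arrays were above both Sham arrays for 21 (23.3%, against 28.9% of all genes) and below for 26 (28.9%, against 26.5%), and their median was 0.011. The CDK inhibitors, which hold cells out of the cycle, had a median of 0.042 over 7 genes (-0.042 with normexp), with p21 (Cdkn1a) at 0.063 and Cdkn2c at 0.057 (-0.042 with normexp) and with Cdkn2a well above background on 1 array only. Among the pocket proteins, other E2F factors and subunits of the DREAM and MuvB complexes, 2 of 18 genes were above and 7 below, with a median of -0.021 (0.093 without scaling). Rbl1, the p107 pocket protein that represses E2F genes, had processed signals of 201 and 190 in Sham and 282 and 267 in TiO2-H, at 0.38 ± 0.052 (0.16 with normexp), while its other probe, well above background on 2 arrays only, was at -0.084. E2f8 had 199 and 150 in Sham and 210 and 224 in TiO2-H, at 0.22 ± 0.16 (0.047 with normexp).

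Of the other 23 replication genes tested, 8 were above and 6 below (28.9% and 26.5% of all genes), with a median of 0.022. Pola1, the catalytic subunit of DNA polymerase alpha, had processed signals of 348 and 336 in Sham and 481 and 459 in TiO2-H, at 0.34 ± 0.046. Rfc3, a subunit of the clamp loader, differed by -0.21 ± 0.060, and Cdc45, a partner of the MCM helicase, by 0.17 ± 0.18. Of the other 42 mitosis genes tested, 10 were above and 12 below, with a median of 0.011. Chek1, the kinase of the DNA damage checkpoint, had processed signals of 65.5 and 50.6 in Sham and 41.3 and 36.2 in TiO2-H, at -0.69 ± 0.16 (-0.43 with normexp), with signals near the lowest that counted as well above background. It was the lowest of that list and past 0.67-fold under both labels, at -0.76 and -0.61, but with the arrays paired across the labels it was at -0.42 and -0.96. Ttk, another checkpoint kinase, and Kif15, a spindle motor that acts beside KIF11, were each well above background on 2 arrays only, at -0.39 and 0.33 with the other 2 arrays at the floor (Ttk at 0.095 with normexp).

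**Figure D5:**
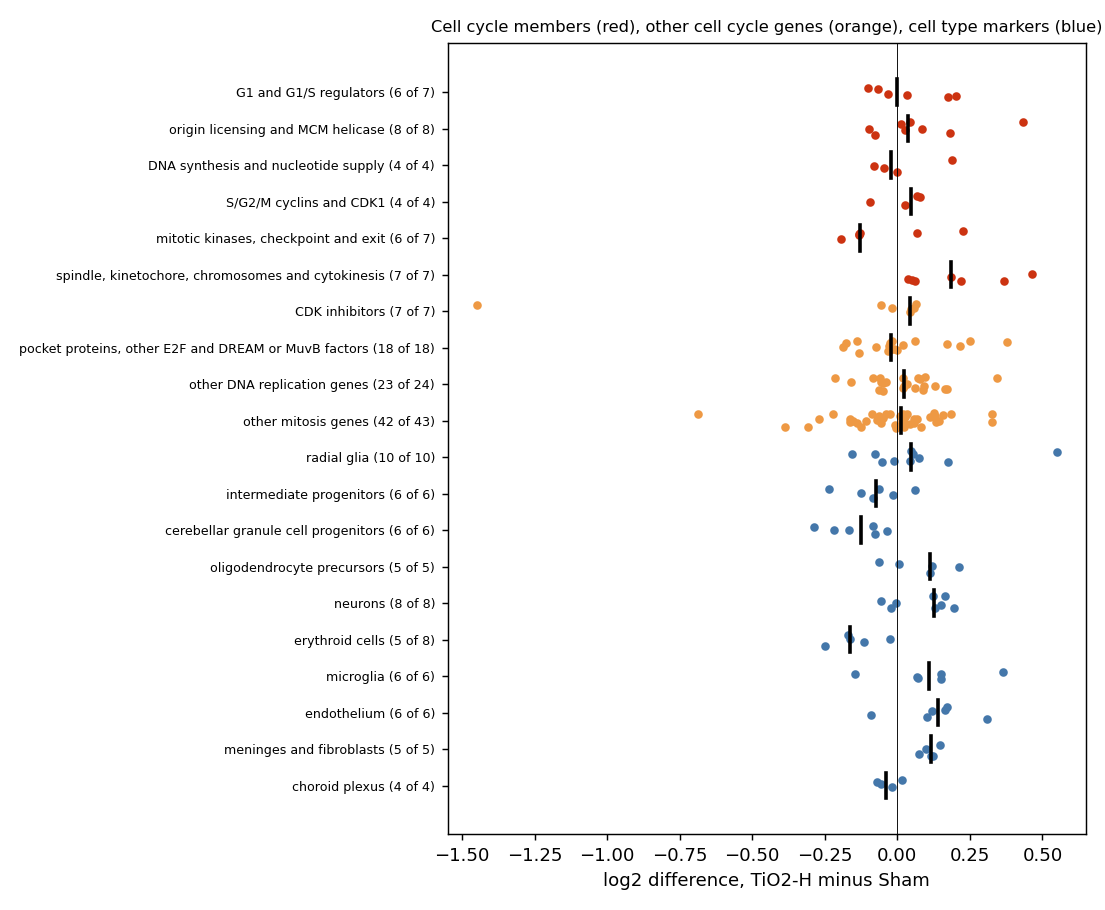
Log2 difference, TiO2-H minus Sham (x axis), of each gene tested (points) in the 6 roles of the members (red), 4 lists of other cell cycle genes (orange) and 10 lists of cell type markers (blue), with the list's median (black line) and the number tested of the number listed. The spindle and kinetochore genes have the highest median of the cell cycle lists and the mitotic kinases the lowest.

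Markers of cell types in whole brain also lay on both sides of 0, and their part in the members' values was not tested. Of 64 marker genes in 10 lists, 61 were tested. Over all genes tested, both TiO2-H arrays lay above both Sham arrays for 28.9% and below for 26.5%. Radial glia markers had a median of 0.046, with 6 of 10 above and 1 below, and a summed level of 138 to 148 in Sham and 154 to 157 in TiO2-H. Most of that sum was 1 gene, Fabp7, at 91.9 and 82.7 in Sham and 97.6 and 99.5 in TiO2-H. Intermediate progenitor markers had a median of -0.073 (0.042 without scaling) and summed levels that overlapped, 10.7 to 11.2 in Sham and 10.7 to 10.8 in TiO2-H. Cerebellar granule cell progenitor markers were below on both arrays for 6 of 6 genes, with a median of -0.12 (-0.0100 without scaling and -0.056 with normexp). Their summed level was 41.02 and 41.01 in Sham and 39.1 and 39.4 in TiO2-H, most of it Zic1 (30.6 and 30.4, then 29.6 and 29.9). Without scaling 3 of these 6 were below 0, and the summed signals were higher in TiO2-H (33951 and 34302) than in Sham (33240 and 32614). Oligodendrocyte precursor markers had a median of 0.11 (0.028 with normexp), with sums of 13.3 to 13.4 in Sham and 14.5 to 14.8 in TiO2-H. Olig1, the brightest of them, was at 7.05 and 6.87 in Sham and 8.05 and 8.08 in TiO2-H. The 4 lists of dividing cells of the neural lineage thus lay on either side of 0.

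Among cells that do not divide or that lie outside the neural lineage, neuronal markers had a median of 0.13, with 4 of 8 above and 1 below and overlapping sums of 385 to 389 in Sham and 386 to 403 in TiO2-H. Erythroid markers had a median of -0.16 and a summed level of 81.1 to 84.6 in Sham and 70.6 to 71.2 in TiO2-H, with Epb42 at no point well above background. Most of that sum was Hba-a1, at 61.3 and 58.9 in Sham and 50.4 and 50.7 in TiO2-H. Microglia markers (5 of 6 above, median 0.11, or 0.053 with normexp) summed to 13.2 to 13.6 in Sham and 14.4 to 14.5 in TiO2-H. Markers of meninges and fibroblasts (5 of 5 above, median 0.11) summed to 23.1 to 23.6 and 24.8 to 25.4. Endothelial markers had a median of 0.14 (0.055 with normexp), with sums of 21.7 to 22.8 and 22.1 to 22.8. Choroid plexus markers had a median of -0.037 (0.077 without scaling), with sums of 84.7 to 87.0 and 82.2 to 83.4. Nearly all of the choroid plexus sum was Ttr, at 82.1 and 79.9 in Sham and 77.4 and 78.5 in TiO2-H. Unscaled, the sums of the choroid plexus, neuronal, endothelial and intermediate progenitor markers were higher in both TiO2-H pools than in both Sham pools, and those of erythroid markers lower.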

How the data were processed

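Brain mRNA of 4 pools (Sham male and female, TiO2-H labelled male and female) was measured on 1 Agilent one-color array each. The authors deposited the processed signal of each spot as intensity, made with Feature Extraction 10.10.1.1, which subtracts background within an array. The deposited table held the same intensity for all 59305 non-control spots. The signals were divided by the array's 75th percentile, outlier spots were left out, spots of a probe were averaged, and log2 was taken. Probes were named by accession through RefSeq (GRCm38.p6), which named 81.9% of 26206 accessions. A gene was read on its probe with the highest mean and tested where well above background on at least 1 array. A dim array was given the lowest signal well above background there, or its own value where that was higher. limma 3.58.1 (R 4.3.3) compared 2 TiO2-H with 2 Sham arrays over 18824 genes, with Benjamini-Hochberg adjustment. The 1.5-fold and 0.67-fold thresholds are those of the study. In data simulated for this comparison over 18824 genes, limma recovered 77.5% of 200 genes changed by 3-fold and called 0.048% of the others. Smaller changes, such as the members' differences of at most 0.46 in log2, were not simulated, so their recovery is not known. Tables were made with Python 3.11.15 and pandas 2.3.3. Genes named were, in each role, those with the highest and lowest signal and the largest differences, and in the other lists those past a fold threshold and the 3 largest differences. The members, lists and rule were chosen with earlier results of these data known. The number of arrays limits the precision. Alternatives were no scaling, quantile normalization, normexp with an offset of 50 (on median signals in place of the planned mean signals), the deposited table, other filters, floors and probes, every identifier tested (added later), each array left out, sex as a block, a trend in limma, and 2-fold thresholds.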

Additional observations from a re-analysis of the deposited data

Results flagged for a closer look

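The 6 measured regulators of G1 and of entry into S phase had a median log2 difference, TiO2-H minus Sham, of -0.01411 on the arrays labelled male and of 0.01342 on the arrays labelled female, which lie on opposite sides of 0. With the arrays paired across the labels the medians were 0.055 (TiO2-H male label minus Sham female) and -0.049 (TiO2-H female label minus Sham male). Each rests on 1 array per group, and the difference between the labels was not tested.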

How the results depend on the processing

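Over 14 results and 20 alternative settings, 143 of 175 values stayed within the spread between pools, or within 1.5 times for counts, and 32 moved. The deposited table held the same signals, so its values could not move. The spread used for medians, 0.0379, was about as large as the exposure median of 0.038, so that a median near 0 could still count as unmoved. Among the medians 1 changed sign, TiO2-H female label minus Sham male, from -0.024 to 0.0791 without scaling. No setting called a member at an adjusted p under 0.05, and the lowest adjusted p of a member ran from 0.105 (limma with a trend) to 0.473 (without the TiO2-H array labelled female). Without scaling, 15 members were higher and 0 lower at an unadjusted p under 0.05, 23 lay above and 1 below, 2 passed a fold threshold on the arrays labelled female, and the median was 0.153, or 0.032 above that of all genes. For these counts the shares of all genes were not counted without scaling. The medians were then 0.138 (both labelled male), 0.201 (both labelled female), 0.221 (TiO2-H male label minus Sham female) and -0.0998 (Sham female minus male), so that the exposure median was then larger than the gap between the Sham pools. Relative to the median of all genes it was not, at 0.032 against -0.066. For the 8 members with a second detected probe, that probe gave 2 higher and 0 lower, 2 above and 1 below, 1 past a fold threshold on the arrays labelled male, and medians of 0.101 (male labels), 0.241 (female labels), 0.153 (TiO2-H male label minus Sham female) and -0.146 (Sham female minus male), over fewer genes. With no filter 0 were lower, and with no floor 1 member passed a fold threshold on the arrays labelled female. Arrays paired across the labels gave 1 past a fold threshold, Kif11. Leaving out 1 array at a time, with a lone array assumed to vary like the other exposure, gave 2 to 7 higher and 0 to 2 lower: 7 and 0 without Sham male, 2 and 2 without Sham female, 4 and 1 without the TiO2-H array labelled male, and 3 and 0 without that labelled female. The median was then 0.056, 0.014, 0.025 and 0.069. The labels number the pools of each group as 1, so that the block used was sex. With sex as a block, as labelled or crossed within TiO2-H, 5 were higher and 0 lower. The cause of these moves was not tested. Low signal over background limits Cenpf, Cdc6 and Chek1.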

Other observations

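E2f4, an E2F factor that acts with the pocket proteins in resting cells, had processed signals of 202 and 197 in Sham and of 165 and 400 on the TiO2-H arrays labelled male and female, so that it lay at -0.39 under the male label and 0.89 under the female label, and at -0.38 and 0.88 with the arrays paired across the labels. Cdkn2a, the locus of the p16 and p19 inhibitors, was well above background only on the Sham female array, at 144, with 8.77 on the Sham male array and 6.77 and 13.2 on the TiO2-H arrays. Notch1, the receptor that keeps radial glia undifferentiated, had 99.9 and 114 in Sham and 151 and 189 in TiO2-H, at 0.55 ± 0.15 (0.33 with normexp), and Hba-a1, an adult alpha globin, had 49658 and 46866 in Sham and 43750 and 44167 in TiO2-H, at -0.25 ± 0.042. Neither passed limma's adjusted test.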
